A study of Mus musculus with 6 samples.

Results

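ATF4 is the transcription factor that cells use to answer a shortage of amino acids, and 9 genes of this response, Atf4 itself, Ddit3, Trib3, Chac1, Asns, Phgdh, Psat1, Shmt2 and Mthfd2, were examined in hematopoietic stem and progenitor cells. The genes were picked by name as ATF4 and targets of it in amino acid and serine metabolism, and each symbol matched a single locus, so that they are 9 of the 53445 loci in the count table. The data are poly(A) RNA-Seq of LSK cells (Lin-Sca+Kit+), the bone marrow fraction that holds hematopoietic stem cells and multipotent progenitors. Of 6 libraries, 3 came from OgaVav-Cre mice and 3 from wildtype mice, each library from 1 female mouse of about 12 weeks on a C57BL/6 background and from no fewer than 20000 sorted cells. Oga encodes O-GlcNAcase, the enzyme that takes the sugar O-GlcNAc off proteins, and in OgaVav-Cre mice a floxed Oga was deleted by Vav-iCre, a Cre that is active across the hematopoietic lineage. The wildtype label names no floxed allele and no Cre, so effects of the deletion and of the Cre transgene cannot be told apart.

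When amino acids run short, or when unfolded protein builds up in the endoplasmic reticulum (ER), a kinase phosphorylates the translation factor eIF2α, general protein synthesis slows and the Atf4 mRNA is translated more. ATF4 protein then pairs with C/EBP family members and binds composite C/EBP-ATF elements near genes that import and make amino acids, charge tRNAs, supply one-carbon units or, under lasting stress, promote cell death. Because ATF4 is set mainly by translation, its mRNA level is not a measure of its activity, and the mRNA of its targets is the nearer readout. In blood stem cells this arm of the stress response is known for its part in the balance between survival and removal of stressed cells.

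The core of the C/EBP-ATF element was searched as TGATGNAA on both strands, where N is any base. In the RefSeq promoter windows (GRCm38.p6, 250 bases before to 50 after the start), all 9 genes were represented and 3 of them, Chac1, Trib3 and Asns, held a match, compared with 1219 of 27025 genes (4.51%). The stricter form TGATGNAAT was in 0 of the 9 windows and in 1.08% of all. Trib3 is shown for its match in this window alone, as 30 bases 5′ to 3′ on the strand of the gene, with the 8 matching bases in capitals.
Trib3, GRCm38.p6 chr2:152344028-152344057, minus strand: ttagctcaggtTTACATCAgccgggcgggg

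A longer window, mm9 sequence from 1000 bases before to 500 bases after the start of each locus, was added after the data had been seen. In it, 5 of the 9 genes held a match, compared with 3543 of 22018 loci tested (16.1%), and TGATGNAAT was in 2 of the 9 and in 4.06% of the loci. The 5 stretches around the matches of TGATGNAA are shown in the same way, because they are the letters by which these genes resemble one another.
Ddit3, mm9 chr10:126727537-126727566, plus strand: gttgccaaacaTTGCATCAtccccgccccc
Chac1, mm9 chr2:119176774-119176803, plus strand: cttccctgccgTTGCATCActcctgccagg
Asns, mm9 chr6:7643214-7643243, minus strand: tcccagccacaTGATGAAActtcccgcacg
Shmt2, mm9 chr10:126959002-126959031, minus strand: agctatggagaTGATGCAAccgagcctcag
Mthfd2, mm9 chr6:83267163-83267192, minus strand: ttgctgcagtcTGATGAAAtctgtgagccg
In Ddit3 and Chac1 the motif reads on the opposite strand and begins at positions -282 and -180 from the start of the locus. The Ddit3 match lies within the span of another gene model of GENCODE vM1, and the Chac1 match overlaps no annotated feature. The Asns match begins 23 bases into the gene as the mm9 locus is drawn, in an untranslated exon. In the RefSeq window, the Asns match with the same letters begins at -23, ahead of the start used there. The Shmt2 and Mthfd2 matches begin 481 and 420 bases into the gene, in its span but in no annotated exon.
Atf4, Phgdh and Psat1 had no match in either window, which says only that these letters are not there. Of the other lists of the pathway, the share with a match in the mm9 window was 55.0% for cytosolic aminoacyl-tRNA synthetases, 50% for amino acid transporters, 38.5% for other ATF4 targets, 36.4% for bZIP partners, 25% for eIF2α kinases and their partners, 16.7% for ER stress genes and 0% for 19 further serine, glycine and one-carbon enzymes. A match is a stretch of letters and not a measured binding site.

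The libraries held between 19318056 and 27064389 reads on loci. Oga, listed under its former symbol Mgea5, was left with 104, 109 and 110 reads in the OgaVav-Cre libraries, against 3164, 2970 and 2736 reads in the wildtype ones. All 10 LSK marker genes were detected, and their summed level was between 1195 and 2499 CPM (counts per library size, with the size set by TMM in edgeR) in OgaVav-Cre and between 1577 and 2736 CPM in wildtype libraries. OgaVav-Cre replicate 3 stood apart, with the lowest sum of LSK markers and, at 3801 CPM, the highest sum of 16 markers of lineage-positive cells, which lay between 732 and 1737 CPM in the other 5 libraries. Antibody genes were also present, although the sort was gated on cells negative for a lineage cocktail: Ighm, Igkc and Igj took 9.88, 4.14 and 1.17% of the reads for replicates 1, 2 and 3 of OgaVav-Cre, and 2.05, 5.48 and 1.36% for those of wildtype. The cell source of these reads was not tested. In these bulk libraries, fewer cells of a type and less RNA per cell cannot be told apart.

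All 9 genes were expressed, and their levels per length covered a wide range. On the RPKM scale (reads scaled to locus length and to library depth, as the authors calculated it), the mean over 6 libraries was 58.2 for Atf4, 33.1 for Phgdh, 31.9 for Shmt2, 19.9 for Psat1, 7.06 for Mthfd2, 4.48 for Ddit3, 2.36 for Asns, 2.05 for Trib3 and 0.722 for Chac1. Atf4 stood above all other genes of the set in every library, with its lowest library at 51.9 and the highest Phgdh library at 48.7 RPKM. The ranges of Phgdh and Shmt2, of Mthfd2 and Ddit3, of Asns and Trib3 and of Trib3 and Chac1 overlapped. The order within these pairs also changed between libraries and is not resolved. Ranges of Phgdh and Psat1 and of Asns and Chac1 overlapped as well, but Phgdh was above Psat1 and Asns above Chac1 in every library. The serine enzymes Phgdh, Psat1 and Shmt2 were thus at higher levels per length than the stress regulators Ddit3, Trib3 and Chac1 in every library.

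None of the 9 genes passed the cutoffs that the study used, a log2 fold change past 1 or -1 together with an adjusted p under 0.05, in the quasi-likelihood test of edgeR, adjusted by Benjamini-Hochberg over 22032 loci. Across all loci, 7 passed these cutoffs (0.0318%). At an unadjusted p below 0.05, 1 of the 9 genes, Phgdh, was higher in OgaVav-Cre cells and 0 were lower, compared with 4.38% of all loci higher and 6.27% lower. DESeq2's Wald test also put 0 of the 9 past both cutoffs. At an unadjusted p below 0.05 it put 2 of them, Phgdh and Chac1, higher, as 3.09% of all loci were. The fitted log2 fold change, OgaVav-Cre over wildtype, was above 0 for 8 of the 9 genes, with a median of 0.22, compared with 50.5% of all loci and a median of 0.0041. That count was between 6 and 8 under the other settings, where Ddit3 and Asns changed sign in some.

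**Figure D1:**
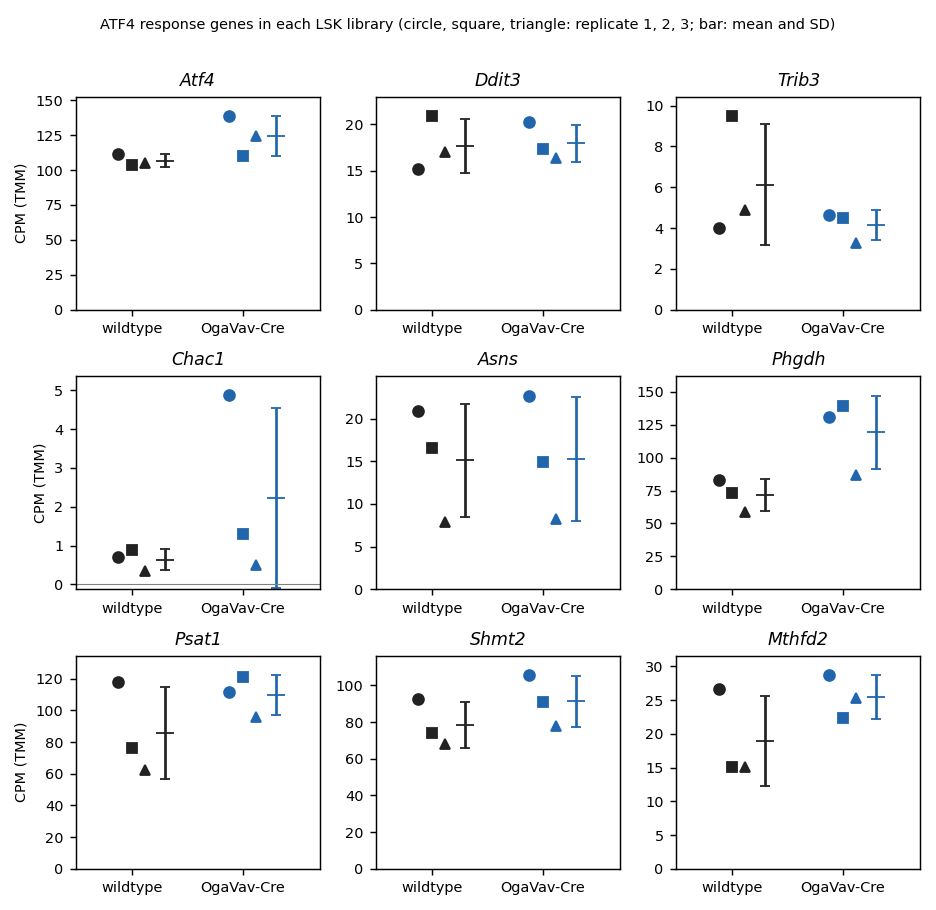
Level of each ATF4 response gene in CPM (TMM-scaled, linear axes that differ between panels) in the 3 wildtype (black) and 3 OgaVav-Cre (blue) LSK libraries, with bars for the mean and SD. The libraries of both genotypes overlap for every gene except Phgdh, and Chac1 is highest in OgaVav-Cre replicate 1, with 4.88 CPM, where the SD bar of that genotype reaches below 0.

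Atf4 (chr15:80085614-80087971, plus strand) encodes the transcription factor itself. In replicates 1, 2 and 3, its level was 139, 110 and 125 CPM for OgaVav-Cre against 112, 103 and 105 CPM for wildtype. OgaVav-Cre replicate 2 lay below the highest wildtype library, so the genotypes overlapped. The means were 124 ± 14.2 CPM (SD, n = 3) and 107 ± 4.40 CPM (SD, n = 3), and the log2 fold change was 0.22 (standard error 0.124, 95% interval -0.07 to 0.51, adjusted p = 0.548 by edgeR).

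Ddit3 (chr10:126727830-126733448, plus strand) encodes CHOP, the bZIP factor that acts with ATF4 and promotes apoptosis under lasting stress. Replicates 1, 2 and 3 of OgaVav-Cre gave 20.2, 17.3 and 16.4 CPM, and those of wildtype 15.1, 20.9 and 17.0 CPM. The highest and the lowest library were both wildtype, and the OgaVav-Cre libraries lay between them. Its log2 fold change was 0.02 (standard error 0.177, 95% interval -0.39 to 0.43, adjusted p = 0.974 by edgeR), an interval that spans small changes in either direction. An antisense locus, AK136907, covers 3315 bases of Ddit3 and had between 185 and 283 reads, and reads at the overlap can belong to either locus, because use of the strand in counting is not stated. Mars, on the minus strand with between 919 and 1789 reads, overlaps the last 172 bases of Ddit3.

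Trib3 (chr2:152163158-152177626, minus strand), a pseudokinase induced by ATF4 and CHOP that dampens ATF4 activity, was the only gene of the set with a mean CPM below that of wildtype. In replicates 1, 2 and 3, its level was 4.66, 4.51 and 3.28 CPM for OgaVav-Cre against 3.98, 9.49 and 4.91 CPM for wildtype. Wildtype replicate 2 stood far above the other 5 libraries, which lay between 3.28 and 4.91 CPM. The fit gave a log2 fold change of -0.56 (standard error 0.364, 95% interval -1.41 to 0.28, adjusted p = 0.593 by edgeR), and without wildtype replicate 2 it was -0.098 with an adjusted p of 0.944.

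Chac1 (chr2:119176965-119180117, plus strand) encodes a glutathione-degrading enzyme that is among the most inducible ATF4 and CHOP targets. Its reads were few, with 110, 33 and 14 for replicates 1, 2 and 3 of OgaVav-Cre against 15, 17 and 8 for those of wildtype, which is 4.88, 1.31 and 0.511 CPM against 0.703, 0.882 and 0.338 CPM. OgaVav-Cre replicates 1 and 2 were above every wildtype library and OgaVav-Cre replicate 3 was below all wildtype libraries but 1. The log2 fold change of 1.79 was the largest of the set and the least certain (standard error 0.823, 95% interval -0.12 to 3.71, adjusted p = 0.490 by edgeR). Without OgaVav-Cre replicate 1 it was 0.50, with an adjusted p of 0.875. Within the OgaVav-Cre libraries alone the highest was 9.55 times the lowest.

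Asns (chr6:7625165-7643254, minus strand) encodes asparagine synthetase, the classic target of the amino acid response. Replicates 1, 2 and 3 of OgaVav-Cre gave 22.7, 15 and 8.21 CPM, and those of wildtype 20.9, 16.5 and 7.91 CPM. Each genotype had a high, a middle and a low library at nearly the same levels as the other, and the spread within a genotype was 2.77-fold in OgaVav-Cre and 2.64-fold in wildtype libraries. The means were 15.3 ± 7.25 CPM (SD, n = 3) and 15.1 ± 6.59 CPM (SD, n = 3). The log2 fold change was 0.02 (standard error 0.438, 95% interval -1.0 to 1.03, adjusted p = 0.992 by edgeR), which leaves room for a log2 change of 1 in either direction.

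**Figure D2:**
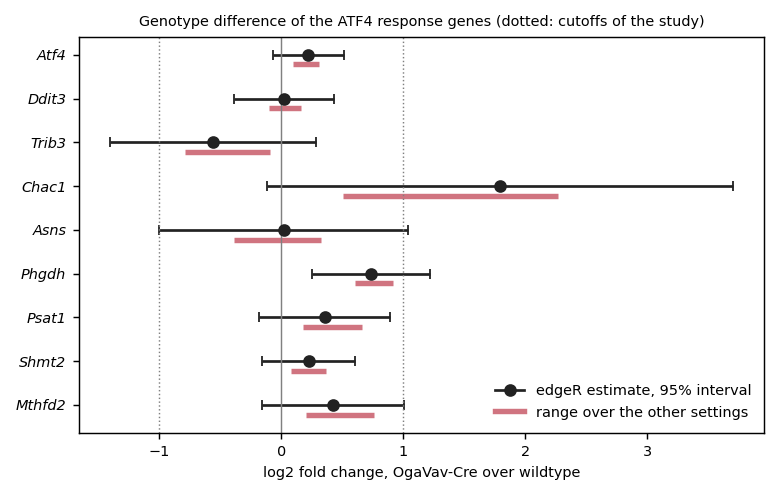
Log2 fold change, OgaVav-Cre over wildtype, of each gene with the 95% interval of the edgeR estimate (black) and the range of the estimate over the other settings, each library left out included (red), with dotted lines at the fold change cutoffs of -1 and 1. Only the interval of Phgdh, 0.25 to 1.22, leaves out 0, and that of Chac1, -0.12 to 3.71, is the widest.

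Phgdh (chr3:98117093-98143913, minus strand) encodes the first enzyme of serine synthesis from glycolytic 3-phosphoglycerate. In replicates 1, 2 and 3, its level was 131, 139 and 87.1 CPM for OgaVav-Cre against 83.4, 73.0 and 58.9 CPM for wildtype. All OgaVav-Cre libraries lay above all wildtype libraries, though OgaVav-Cre replicate 3 was close to wildtype replicate 1. Phgdh was the only 1 of the 9 genes whose genotypes did not overlap with OgaVav-Cre higher, as 7.5% of all loci were, and 0 of the 9 did not overlap with OgaVav-Cre lower, as 9.97% of all loci were. The means were 119 ± 28.1 CPM (SD, n = 3) and 71.8 ± 12.3 CPM (SD, n = 3), a ratio of 1.66. The log2 fold change was 0.73 (standard error 0.208, 95% interval 0.25 to 1.22, unadjusted p = 0.00847 and adjusted p = 0.412 by edgeR), which ranked 435 of 22032 loci by p. A two-sided exact permutation test on the log2 CPM of the 6 libraries gave p = 0.1, the smallest that 3 against 3 libraries allow. The fold change was between 0.61 and 0.92 under 19 other settings, with 0.92 without OgaVav-Cre replicate 3, and the adjusted p was between 0.0782, with DESeq2, and 0.949. The difference therefore kept its direction and did not pass the adjusted cutoff in any of these fits.

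Psat1 (chr19:15979168-16021827, minus strand) encodes the aminotransferase that acts after PHGDH. Replicates 1, 2 and 3 of OgaVav-Cre gave 112, 121 and 96.1 CPM, and those of wildtype 118, 76.4 and 62.6 CPM. Wildtype replicate 1 lay among the OgaVav-Cre libraries and the other two wildtype libraries below all of them. The log2 fold change was 0.36 (standard error 0.231, 95% interval -0.18 to 0.89, adjusted p = 0.592 by edgeR), and with a library left out it was between 0.17, without wildtype replicate 3, and 0.66, without wildtype replicate 1 (adjusted p = 0.909 and 0.230). The table lists a second locus on the same strand inside the span of Psat1, LOC100047252, with between 537 and 1205 reads, so part of the reads of Psat1 may be shared with it. On the opposite strand, LOC100504970, with between 432 and 997 reads, overlaps Psat1 by 581 bases.

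Shmt2 (chr10:126954179-126959500, minus strand) encodes the mitochondrial hydroxymethyltransferase that splits serine into glycine and a one-carbon unit. In replicates 1, 2 and 3, its level was 106, 90.8 and 77.7 CPM for OgaVav-Cre against 92.4, 74.1 and 68.2 CPM for wildtype. The genotypes overlapped, and the log2 fold change was 0.22 (standard error 0.164, 95% interval -0.16 to 0.61, adjusted p = 0.631 by edgeR).

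Mthfd2 (chr6:83255685-83267600, minus strand) encodes the mitochondrial dehydrogenase and cyclohydrolase that carries that one-carbon unit onward. Replicates 1, 2 and 3 of OgaVav-Cre gave 28.7, 22.3 and 25.3 CPM, and those of wildtype 26.7, 15.1 and 15.1 CPM. As for Psat1, wildtype replicate 1 alone of the wildtype libraries reached the OgaVav-Cre range. The fit gave a log2 fold change of 0.43 (standard error 0.250, 95% interval -0.16 to 1.01, adjusted p = 0.562 by edgeR), and with a library left out it was between 0.28, without wildtype replicate 3, and 0.76, without wildtype replicate 1 (adjusted p = 0.888 and 0.221). Without wildtype replicate 1, 3 of the 9 genes, Phgdh, Psat1 and Mthfd2, were higher in OgaVav-Cre cells at an unadjusted p below 0.05, and the share of all loci that were higher at that p was then 7.4%, against 4.38% with all libraries.

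Most of the genes varied together across the libraries. OgaVav-Cre replicate 1 was the highest library for 5 of the 9 genes and first or second for 7, and wildtype replicate 3 was the lowest for 6. Over the 36 pairs of genes, Pearson's r of the log2 CPM across the 6 libraries had a median of 0.55 and was above 0 in 29 pairs. The other 7 pairs each held Trib3 or Ddit3, down to -0.70 for Trib3 and Mthfd2. Among Phgdh, Psat1, Shmt2 and Mthfd2 the 6 pairs had r between 0.68 and 0.88, and after the mean of each genotype was taken out between 0.38 and 0.84. Ddit3 and Trib3 had an r of 0.75, or 0.92 within genotypes, and both were highest in wildtype replicate 2. These are descriptions over 6 libraries, and the points of a pair share a library and its scaling. The TMM factor was smallest in OgaVav-Cre replicate 1, at 0.897, and largest in wildtype replicate 3, at 1.09. Pairs of other loci were not examined, so the r values are not shown to be particular to these genes.

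Levels of several of these genes also moved with the share of antibody reads, which was 9.88% in OgaVav-Cre replicate 1 and 1.17% in OgaVav-Cre replicate 3. Across the 6 libraries, Pearson's r between the log2 CPM and the log2 share of Ighm, Igkc and Igj was 0.89 for Chac1, 0.79 for Ddit3, 0.78 for Asns, 0.62 for Shmt2, 0.61 for Phgdh, 0.50 for Trib3, 0.34 for Psat1, 0.32 for Atf4 and 0.16 for Mthfd2. Asns in wildtype replicate 1, at 20.9 CPM with an antibody share of 2.05%, stood apart from the other libraries in this respect. With this share as a covariate in the edgeR fit, the log2 fold change of Chac1 was 0.57 and that of Phgdh 0.62. The 10 plasma cell markers summed to between 12123 and 112824 CPM in OgaVav-Cre and between 12950 and 56068 CPM in wildtype libraries, and none was at 0 in all libraries. Ighm, Igkc and Igj are among these 10, so the sum is not a measure separate from the antibody share. All 10 had a positive log2 fold change, with a median of 0.68, and 0 of them had an unadjusted p below 0.05. Of the 16 markers of lineage-positive cells, 10 had a positive log2 fold change and 6 a negative one, from 1.41 for Cd4 (adjusted p = 0.460 by edgeR), the 1 marker with an unadjusted p below 0.05, to -1.08 for Klrb1c. The part of these cells in the values of the 9 genes was not tested.

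**Figure D3:**
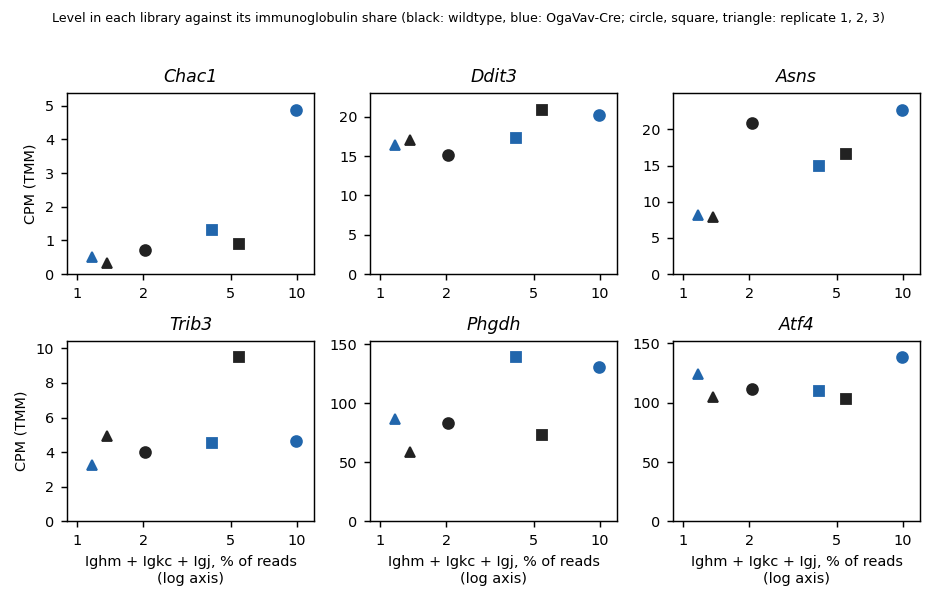
CPM of 6 of the genes in each library (linear axis) against the percentage of its reads on Ighm, Igkc and Igj (log axis), with OgaVav-Cre in blue and wildtype in black. Chac1 is highest at 4.88 CPM in the library with the largest share, 9.88%. Atf4 is also highest in that library, at 139 CPM, and is between 103 and 139 CPM at all shares.

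Among the 5 loci whose log2 CPM followed Atf4 most closely over the 6 libraries, out of 11875 loci with a mean of at least 10 CPM, were AK028021, Atf6, Ctu2 and AK133325, with Pearson's r between 0.975 and 0.990. Atf6 encodes an ER-anchored factor of another arm of the unfolded protein response. Its level was 97.3, 74.7 and 87.9 CPM for OgaVav-Cre and 72.6, 65.2 and 64.7 CPM for wildtype replicates 1, 2 and 3. These loci were picked as the highest r of 11875 over 6 libraries, so a high r is built into the choice. That Atf6, like Atf4, was highest in OgaVav-Cre replicate 1 follows from the same choice. None of the other 8 genes of the set was among the 5.

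The eIF2α kinases and their partners act before ATF4. Of 16 eIF2α kinases, phosphatases and eIF2 or eIF2B subunits tested, 0 passed both cutoffs, 1 was higher at an unadjusted p below 0.05 and 0 were lower, with a median log2 fold change of 0.10. Across all loci, 4.38% were higher and 6.27% lower at that p. The 1 gene was Eif2s3x, a subunit of eIF2, which was at 16.1, 14.6 and 14.0 CPM for OgaVav-Cre and 12.0, 11.6 and 9.98 CPM for wildtype replicates 1, 2 and 3 (log2 fold change 0.42, adjusted p = 0.447 by edgeR). With DESeq2, library totals, no filter or the antibody share as a covariate, 0 of the 16 were higher at that p. Without wildtype replicate 1, 3 were higher and 2 lower, and 7.4% of all loci were then higher. Of 11 bZIP partners and related factors, 0 had an unadjusted p below 0.05 and the median was -0.054. With DESeq2, no filter or the replicate block, 1 was higher at that p, as 3.09, 3.64 and 5.75% of all loci were. Without OgaVav-Cre replicate 3, 2 were higher, against 6.2% of all loci, and without wildtype replicate 2, 1 was lower. Atf5, an ATF4 relative whose mRNA is also translated under stress, was at 34.4, 18.6 and 10.1 CPM for OgaVav-Cre and 14.5, 13.1 and 8.93 CPM for wildtype replicates 1, 2 and 3 (log2 fold change 0.79, adjusted p = 0.532 by edgeR), with the same high library as Chac1.

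Downstream of ATF4 lie the amino acid transporters. Of 10 tested, 3 were higher at an unadjusted p below 0.05, as 4.38% of all loci were, 0 were lower, and the median log2 fold change was 0.60. That median was 0.27 without OgaVav-Cre replicate 1, the library with the largest antibody share, and 0.30 with that share as a covariate. Without OgaVav-Cre replicate 3, 6 of the 10 were higher at that p, as 6.2% of all loci then were. Library totals without TMM gave 2 higher and 1 lower, with 1.77% of all loci higher. The genotypes did not overlap for 3 that were higher and 1 that was lower, against 7.5% and 9.97% of all loci. The 1 that was lower was Slc43a1 (log2 fold change -0.22, adjusted p = 0.553 by edgeR), which was named after its values were seen. Slc1a5, which imports glutamine and other neutral amino acids, was at 95.9, 119 and 90.5 CPM for OgaVav-Cre and 31.0, 29.5 and 39.9 CPM for wildtype replicates 1, 2 and 3. It was the 1 gene of the pathway lists past both cutoffs (log2 fold change 1.60, standard error 0.167, adjusted p = 0.0466 by edgeR). That call was kept in 6 of 19 other settings, and, when libraries were left out in turn, in 1 of 6, that without OgaVav-Cre replicate 3, where the adjusted p was 0.0431. The fold change was between 1.42 and 1.75 in all 19. The adjusted p was 7.85e-13 with DESeq2, the test that the study used. It was highest, at 0.369 by edgeR, without the library of each genotype with the highest antibody share. The study named Slc1a5 as its most significantly upregulated gene and also reported its increase by qRT-PCR on cDNA of the same libraries. Slc7a5 and Slc7a1, importers of large neutral and of cationic amino acids, did not overlap between genotypes and had log2 fold changes of 0.74 and 0.45 (adjusted p = 0.384 and 0.423 by edgeR).

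Of 20 cytosolic aminoacyl-tRNA synthetases, which charge tRNAs with amino acids, 18 had a positive log2 fold change, compared with 50.5% of all loci. The median was 0.20, with a range from -0.17 to 0.42. Only 1 of the 20, Nars, which charges tRNA with asparagine, had an unadjusted p below 0.05 (log2 fold change 0.42, adjusted p = 0.469 by edgeR). It was at 131, 92.7 and 83.6 CPM for OgaVav-Cre and 83.1, 74.7 and 72.0 CPM for wildtype replicates 1, 2 and 3. Across all loci, 4.38% were higher at that p. The median of the synthetases was 0.081 with library totals without TMM. It was 0.16 without OgaVav-Cre replicate 1 and also with the antibody share as a covariate. In these settings 0 synthetases were higher at that p, and 5 were with the replicate number as a block, where 5.75% of all loci were. Of 19 further serine, glycine and one-carbon enzymes tested, 2 were higher at an unadjusted p below 0.05 and 0 were lower, with a median of 0.17. Across all loci, 4.38% were higher and 6.27% were lower. Mthfd1l, which works in the mitochondrial one-carbon cycle with SHMT2 and MTHFD2, was at 55.1, 67.4 and 51.9 CPM for OgaVav-Cre and 48.5, 36.5 and 39.1 CPM for wildtype replicates 1, 2 and 3 (log2 fold change 0.49, adjusted p = 0.412 by edgeR). Tyms, the thymidylate synthase, was the other (0.52, adjusted p = 0.465). Library totals without TMM gave 0 higher and 3 lower among the 19, and RPKM with a pseudocount of 0.1 or 1 gave 1 higher and 2 lower. The genotypes did not overlap for 2 that were higher and 2 that were lower, against 7.5% and 9.97% of all loci. Mtfmt, among those lower, had a log2 fold change of -0.46 (adjusted p = 0.482 by edgeR). Of 13 other ATF4 targets tested, 1 was higher and 0 were lower at an unadjusted p below 0.05, with a median of 0.15, and the 1 gene was Hspa9, the mitochondrial HSP70 (log2 fold change 0.45, adjusted p = 0.431). Library totals without TMM gave 0 higher and 1 lower among these targets. Without OgaVav-Cre replicate 3, 3 were higher, against 6.2% of all loci.

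**Figure D4:**
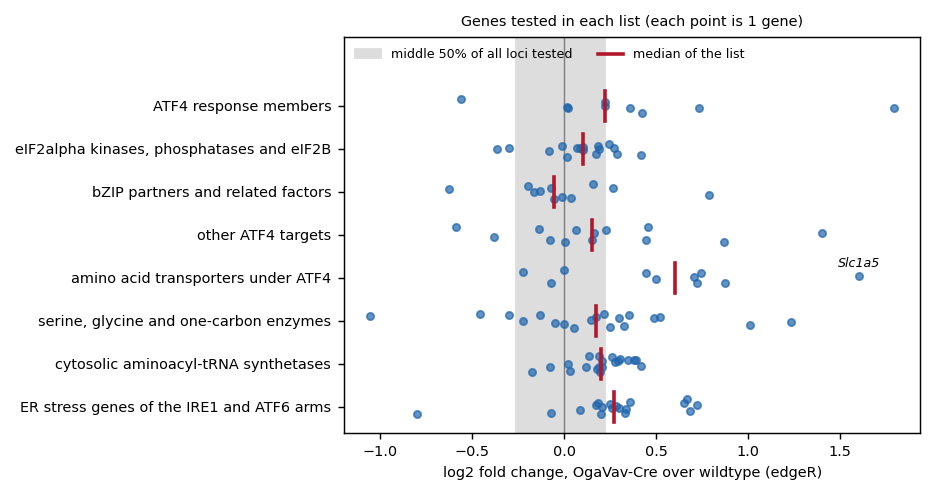
Log2 fold change, OgaVav-Cre over wildtype by edgeR, of every gene tested in the 8 lists, 1 point for each gene, with the list median in red and the middle 50% of all loci tested, -0.26 to 0.22, in grey. Medians lie between -0.054 and 0.60, and Slc1a5 is the 1 gene past both cutoffs.

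Of 18 ER stress genes of the IRE1 and ATF6 arms, which sense unfolded protein alongside the eIF2α arm, 16 had a positive log2 fold change, compared with 50.5% of all loci, with a median of 0.27. The median was 0.049 without OgaVav-Cre replicate 1, 0.11 with the antibody share as a covariate and 0.11 without the library of each genotype with the highest share. At an unadjusted p below 0.05, 1 was higher, Atf6 (0.36, adjusted p = 0.439 by edgeR), and 1 was lower, Ern1, which encodes the sensor IRE1α. Across all loci, 4.38% were higher and 6.27% lower at that p. Ern1 was at 171, 167 and 119 CPM for OgaVav-Cre and 228, 245 and 321 CPM for wildtype replicates 1, 2 and 3, with no overlap (log2 fold change -0.80, adjusted p = 0.385 by edgeR). Xbp1, the mRNA that IRE1α splices and also a plasma cell marker, had 763 CPM in OgaVav-Cre replicate 1, the library with the largest antibody share, and between 162 and 385 CPM in the other 5.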

How the data were processed

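The 6 libraries of sorted LSK cells were grouped by their genotype label, 3 of OgaVav-Cre and 3 of wildtype mice. Per the study's methods, single-end reads of 50 bp were aligned to mm9 by the authors, who used Genomatix to count them on each locus. The aligner, the counting and the annotation version are not given in the sources used here, and the submitters' processing notes name CASAVA 1.8.2. The deposited table holds counts (raw reads per locus and library) and RPKM made by the authors, both of which were used. It also holds 6 columns of normalized expression and the p-values and log2 fold changes of the authors' DESeq2 comparison, none of which was used. No value was pooled over mice.

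The read counts were fitted with edgeR 4.0.16 under R 4.3.3 (TMM, filterByExpr by genotype, glmQLFit and glmQLFTest at their defaults), which left 22032 of 53445 loci with a biological coefficient of variation of 0.308, and p-values were adjusted over these by the Benjamini-Hochberg method. All 9 genes passed the filter. The libraries held 19318056 to 27064389 reads, and counting error weighs most on Chac1, with 8 to 110 reads. The test was checked on simulated counts. The genes, the lists and the tests were chosen with earlier results of these data known. Named in the text are the 9 genes, Mgea5, Slc1a5, from each list genes past adjusted p 0.05 and among the 3 with the smallest p, and the 5 loci most like Atf4 by Pearson's r, of which 1 is not reported here. Xbp1 was named as the gene that is on both the ER stress and the plasma cell list. Alternatives were other scalings, filters, tests (DESeq2 1.42.0, limma 3.58.1) and covariates, RPKM with a pseudocount of 0.1 or 1, and each library left out. Motifs were searched by script in mm9 and in RefSeq promoters, and loci on the mitochondrial chromosome were left out of the mm9 search. Python 3.11.15 with pandas 2.3.3 and matplotlib 3.10.9 made the tables and plots.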

Additional observations from a re-analysis of the deposited data

How the results depend on the processing

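With 3 mice a genotype, the intervals of Trib3, Chac1, Asns, Phgdh and Mthfd2 reached past a log2 change of 1 or -1, and values for Chac1 rest on 8 to 110 reads. None of the 9 genes passed both cutoffs, and 0 were lower at an unadjusted p below 0.05, in any of 19 other settings. The number higher at that p was 1 in the edgeR fit. It was 2 with no filter, with DESeq2 and with the replicate number as a block, 1 to 3 with a library left out, and 0 without the library of each genotype with the highest antibody share, a setting added after seeing the data, in which Phgdh had a log2 fold change of 0.68. The share of all loci higher at that p was 3.64, 3.09 and 5.75% with no filter, DESeq2 and the block. It was 2.19 to 7.4% with a library left out and 1.83% without the highest antibody libraries. A filter of at least 10 reads in every library left out Chac1.

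Ddit3 turned from 0.02 to -0.10 with library totals, -0.074 with the antibody share as covariate, -0.039 and -0.034 with RPKM and a pseudocount of 0.1 and 1, and lay between -0.077 and 0.16 with a library left out. Asns turned from 0.02 to -0.12, -0.39, -0.056 and -0.043 in the same settings, to -0.30 without the library of each genotype with the highest antibody share, and lay between -0.38 and 0.32 with a library left out. Library totals moved the median of all loci to -0.11, so that Ddit3 and Asns stayed close to that median. In the RPKM fits that median was -0.065 and -0.041 with a pseudocount of 0.1 and 1. The cause of the turns was not tested.

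Over the 107 genes of the 7 pathway lists beside the 9, 1 passed both cutoffs, 9 were higher and 1 was lower at an unadjusted p below 0.05. The shares of all loci at that p were 4.38% higher and 6.27% lower. The 1 call was lost (0 genes) with library totals, at least 10 reads in every library, limma-voom, the replicate block, the antibody covariate, both forms of RPKM and the removal of the highest antibody libraries. The number higher was 2 with library totals, 17 with the replicate block, 4 with either form of RPKM and 2 without the highest antibody libraries. The share of all loci higher in these settings was 1.77, 5.75, 2.82 or 2.8, and 1.83%. The number lower was 6 with library totals, 2 with limma-voom, the antibody covariate and the removal of the highest antibody libraries, and 3 with either form of RPKM. With a library left out these numbers lay between 0 and 1, 2 and 21, and 1 and 5. The share of all loci higher was then 2.19 to 7.4%. Across all loci, 1 was called higher and 6 lower, against 35 and 82 with DESeq2.

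No pairing of the mice by replicate number is stated, so the main fit used none. Deviations from the genotype means correlated at -0.0742, 0.233 and 0.283 for numbers 1, 2 and 3. Between libraries of unlike number they correlated at -0.352 to 0.183. These values do not settle whether the numbers pair the mice. With the block, the log2 fold change of Phgdh was 0.72 (adjusted p = 0.318 by edgeR). The promoter motif count of 3 of 9 was 0 with TGATGNAAT and 5 in the mm9 window, which was added after seeing the data. Each symbol had 1 locus, so no other choice of locus was possible.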
